A study of Papio hamadryas with 17 samples.

Results

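The 9 genes of amino acid transport in the kidney proximal tubule followed here were measured across baboon kidney cortex: SLC3A1, SLC7A9, SLC7A13, SLC3A2, SLC7A7, SLC7A8, SLC6A19, SLC1A1 and SLC36A2. The genes were chosen by name, as transcripts whose first symbol in the deposited tables is 1 of these 9, and their values were summed per gene. They are 9 of the 9818 genes held in both tables used here, and are carried there by 12 transcripts. All 9 passed the filter on low values. The animals were 17 baboons, labelled Papio hamadryas, that had eaten a low-salt chow for life. Each gave 1 library of stranded messenger RNA from a cortex biopsy taken under ultrasound guidance and put into liquid nitrogen. The labels give no other treatment, with 8 females aged 15 to 19 and 9 males aged 6 to 13, the age being labelled without a unit.

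The proximal tubule takes back nearly all amino acids that the glomerulus filters. Its apical membrane carries rBAT (SLC3A1), a heavy chain that needs a light chain to transport. With b0,+AT (SLC7A9) it takes up cystine and the dibasic amino acids, and loss of either chain causes cystinuria. AGT1 (SLC7A13) is another light chain of rBAT, described in the straight segment as a carrier of cystine, aspartate and glutamate. On the basolateral side the heavy chain 4F2hc (SLC3A2) pairs with y+LAT1 (SLC7A7), the dibasic exporter lost in lysinuric protein intolerance, and with LAT2 (SLC7A8), an exchanger of neutral amino acids. B0AT1 (SLC6A19), the apical sodium-coupled carrier of neutral amino acids, is the gene of Hartnup disorder. EAAT3 (SLC1A1) takes up glutamate and aspartate, and PAT2 (SLC36A2) carries proline and glycine with protons.

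The values are signal, the deposited value per transcript minus its offset of 1, summed per gene. How the values were scaled is not stated, and the tables of both sexes were treated as being on 1 scale. A division by transcript length is not stated either, so levels are compared between libraries and never between genes. Female 1, female 2 and male 6 were left out of every comparison unless stated: their summed signal of the skeletal muscle genes in both tables (2 of 9 listed) ran from 54348 to 111219, against at most 21.9 in the other females and 19.8 in the other males. That left 6 females and 8 males, in which the shared signal summed to between 259197 and 440508 per library. The labels do not give technical repeats, and each library is 1 animal. Library names form 1 series for females and 2 for males (series A with 5 males, series B with 3 of the 8), so sex, age and library series cannot be told apart. All 16 proximal tubule markers listed were in both tables. Their summed signal was 316 to 4997 in the females, against 4876 to 11452 in the males, and in females SLC5A2 was at 0 in 1 library, female 3. In the test used below 16 of 16 were called lower in females, where 36.1% of all genes were. That count was 11 under median scaling, where 14.9% of all genes were called lower, and 12 under upper quartile scaling, beside 15.3%. It was 10 against series A males alone, beside 20.1%, and 6 with all 17 libraries, beside 12.9%. With age as a term it was 0, beside 0% of all genes. Other segments moved in part. The distal convoluted tubule markers (3 of 4 in both tables) summed to 84.3 to 513 in the females (median 182), against 267 to 934 in the males (median 492). The thick ascending limb gene CLDN16 was called lower (-1.21, adjusted p = 0.00373, limma), while UMOD was at -0.04, or 0.42 under median scaling. Mean signal in females and males was 150 and 220 for SLC12A1 and 93.2 and 118 for KCNJ1, of the same segment. The median sum of the collecting duct markers was 505 in females and 559 in males. For the podocyte markers (2 of 5 in both tables) it was 263 and 208. In bulk tissue fewer proximal tubule cells and less RNA per cell cannot be told apart. A fit given below carries the marker level as a term. The marker ranges of the sexes hardly overlap, so that fit cannot cleanly separate sex from marker level.

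**Figure D1:**
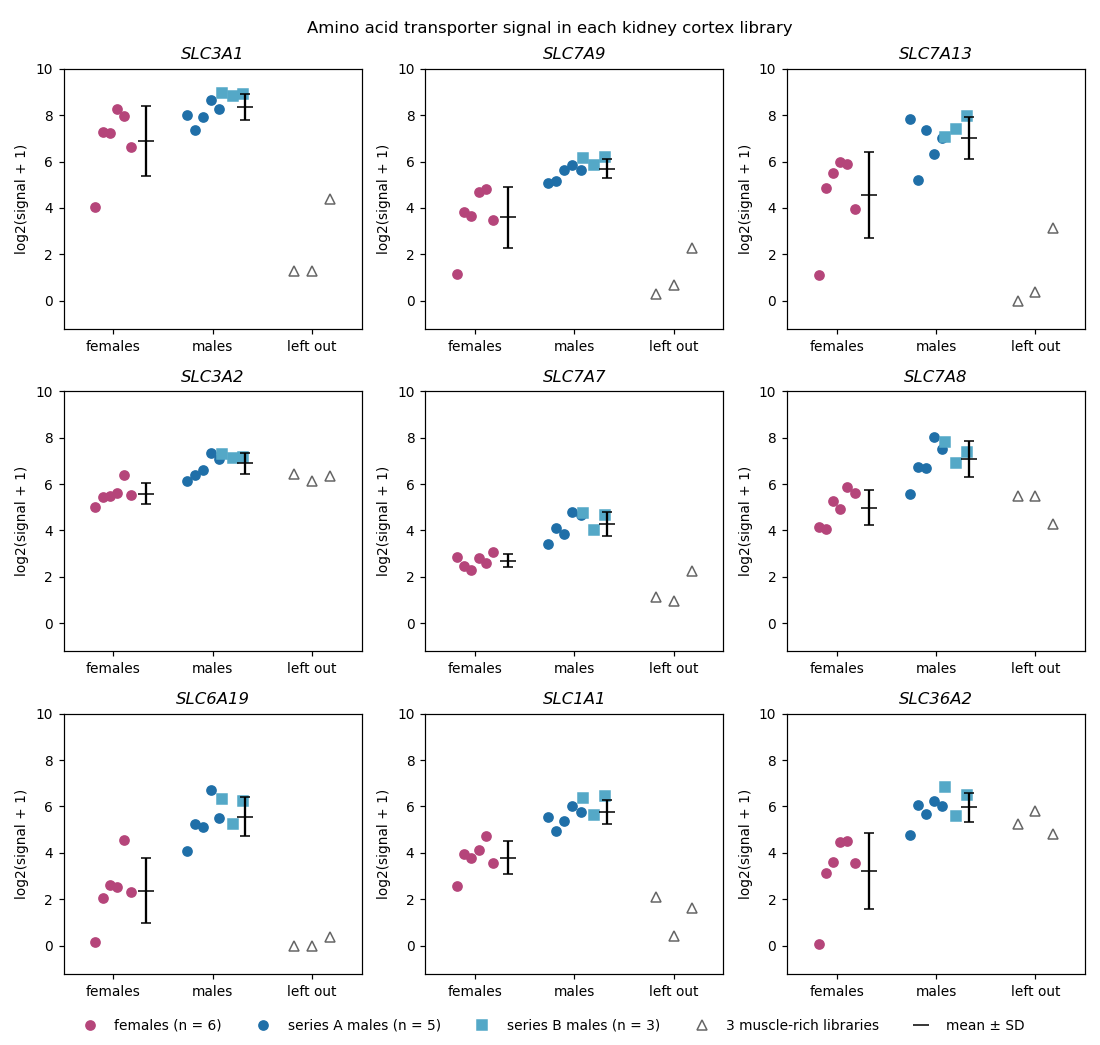
Signal of each of the 9 genes in each library, on a log scale, for 6 females, the males of series A and B, and the 3 libraries left out. Each point is 1 animal, and the males sit above most females for every gene, with female 3 the lowest of the 6 females used for SLC3A1, SLC7A9, SLC7A13, SLC3A2, SLC6A19, SLC1A1 and SLC36A2.

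All 3 genes of the apical rBAT system were lower in females. The heavy chain SLC3A1 (sequence NC_018164.2, 43460264 to 43507943, plus strand) had a signal of 15.5, 150 and 309 in females (lowest, median, highest) and 165, 355 and 490.3 in males. The ranges overlapped, with female 6 and female 7 above the lowest males. The mean was 162 ± 105 in females (SD, n = 6) and 348 ± 122 in males (SD, n = 8), and the log2 difference (female minus male) was -1.46 (SE 0.50, adjusted p = 0.0309, limma). Of the 9 genes it had the largest adjusted p, and without female 3 the difference was -0.89.

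SLC7A9, the cystine-transporting light chain (NC_018170.2, 27499655 to 27534002, minus strand), measured 1.24, 12.3 and 27.2 in females and 32.5, 52.1 and 71.8 in males. Every male was above every female. The log2 difference was -2.08 (SE 0.43, adjusted p = 0.00144, limma). SLC7A13 (NC_018159.2, 82183171 to 82200097, minus strand) measured 1.18, 36.0 and 62.7 in females, against 35.3, 146 and 251 in males. Male 2, at the bottom of the male range, and male 4, at 79.0, were the 2 lowest males, and 3 females lay above male 2. Its log2 difference was -2.46 (SE 0.64, adjusted p = 0.00684, limma), with the widest error of the 9 genes.

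The basolateral 4F2hc system was lower in females as well, with the smallest estimate for the heavy chain. SLC3A2 (NC_018165.2, 10869937 to 10901382, minus strand) measured 31.5, 44.2 and 83.1 in females and 69.7, 135 and 159 in males. Female 7 alone reached into the male range, above male 1 and male 2, and the log2 difference was -1.31 (SE 0.22, adjusted p = 0.000416, limma). The 4F2hc heavy chain is made by most cell types, since it also serves integrins and other light chains, so its level in cortex is not that of the proximal tubule alone.

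SLC7A7, the dibasic exporter of the basolateral membrane (NC_018158.2, 79742704 to 79787059, minus strand), had a narrow female range of 3.97, 5.56 and 7.38 and a male range of 9.75, 20.2 and 26.9. The sexes did not overlap, and female 3, low for most of the other genes, had the second highest female value at 6.35. Its log2 difference was -1.60 (SE 0.22, adjusted p = 0.000117, limma), the smallest adjusted p of the 9. SLC7A8 lies on the same sequence as SLC7A7 (80114031 to 80179644, minus strand) and measured 15.6, 33.3 and 57.9 in females and 46.9, 142 and 257 in males. The overlap came from male 1, which was below female 7 and female 8. Its log2 difference was -2.10 (SE 0.36, adjusted p = 0.000442, limma).

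The 3 transporters that work without an SLC3 heavy chain were also lower in females, SLC6A19 by the largest amount. SLC6A19 (NC_018157.2, 907383 to 929356, plus strand) had a signal of 0.112, 4.38 and 22.8 in females and 16.2, 40.3 and 104 in males. Female 7 was the single female above a male, male 1, and the other 5 females were at 5.11 or less. The log2 difference was -3.18 (SE 0.52, adjusted p = 0.000321, limma). SLC1A1, the glutamate and aspartate carrier (NC_018166.2, 71015060 to 71110518, minus strand), measured 4.99, 13.5 and 25.8 in females, against 29.5, 50.9 and 85.6 in males, without overlap. Its log2 difference was -1.97 (SE 0.29, adjusted p = 0.000178, limma).

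SLC36A2, the proton-coupled proline and glycine carrier (NC_018157.2, 145660137 to 145693682, minus strand), measured 0.0562, 11.1 and 21.9 in females and 26.5, 64.5 and 113 in males. Every male was above every female, and female 3 was far below the next female, at 7.75. The log2 difference was -2.73 (SE 0.54, adjusted p = 0.00115, limma). All coordinates are those of the deposited tables, and the genome build is not given in the sources used here.

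**Figure D2:**
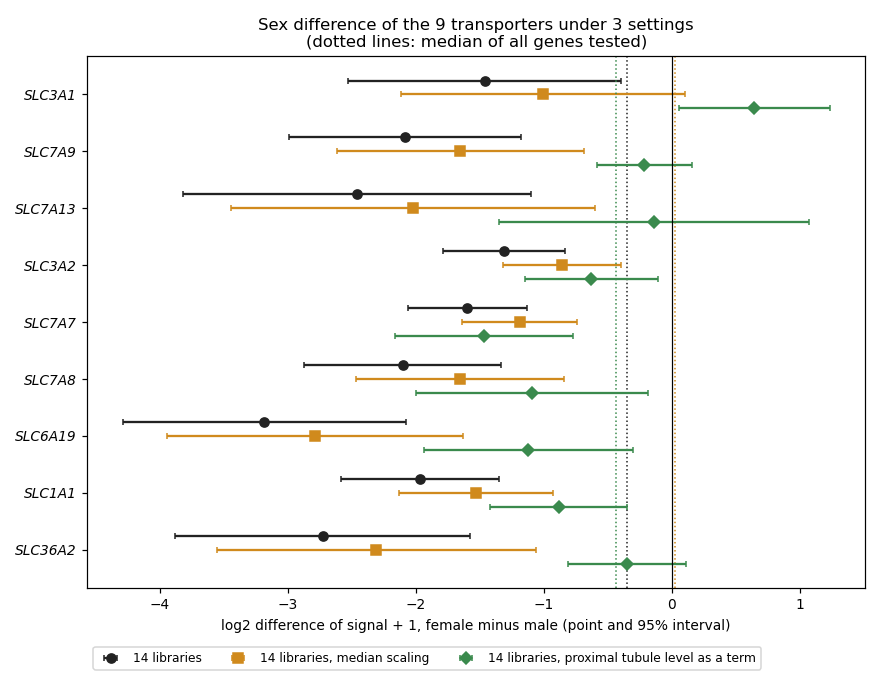
Log2 difference in signal (female minus male) of each of the 9 genes with its 95% confidence interval from limma, for 6 females and 8 males. The 3 settings are the main fit, median scaling, and the proximal tubule marker level as a term. Dotted lines mark the median of all 9532 genes tested, at -0.35, 0.03 and -0.43 in that order. In the main fit all 9 estimates are below their line, from -1.31 for SLC3A2 to -3.18 for SLC6A19. With the marker level as a term, SLC3A1 (0.65), SLC7A13 (-0.14), SLC7A9 (-0.21) and SLC36A2 (-0.35) are above theirs.

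All 9 members were called lower in females at an adjusted p under 0.05 (limma), and 0 were called higher. Over all genes tested, 36.1% were called lower and 2.22% higher, so a large share of the transcriptome moved in the members' direction. The median log2 difference was -2.08 over the members and -0.35 over all 9532 genes. Of the 9, SLC7A9, SLC7A7, SLC1A1 and SLC36A2 had sexes without overlap, where 11.8% of all genes were lower in females without overlap. After median scaling 1 member had sexes without overlap, beside 4.2% of all genes, and with all 17 libraries 0 had, beside 0.706%. Rescaling every library to the same median gene moved the median of all genes to 0.03 and made the calls almost even, with 14.9% lower and 14.4% higher. Then 8 of the 9 were still called lower, and SLC3A1 was at -1.01 (adjusted p = 0.160, limma), or at -0.39 without female 3 (adjusted p = 0.306).

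Within each male series the direction was the same. Against series A males alone, 7 of the 9 were called lower, SLC3A1 and SLC7A13 not passing, where 20.1% of genes were called lower. Against series B males alone, 8 were called, SLC3A1 not passing, where 31.5% of genes were called lower. With all 17 libraries 8 were called, and SLC3A1 was at -2.43 (adjusted p = 0.113, limma), where 12.9% of genes were called lower. With all 17 libraries and median scaling together, 2 were called, SLC7A7 and SLC6A19, where 2.56% of genes were called lower.

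Age and the proximal tubule marker level each moved the calls. With age as a term in the limma fit, 0 of the 9 were called, and 0.0105% of genes (1 of 9532) were, the ages of the sexes not overlapping. The 9 estimates were still below 0, with a median of -1.45 against -0.36 for all genes, and their standard errors were 0.66 to 1.91. SLC7A7 was at -1.95 (95% interval -3.36 to -0.55, adjusted p = 0.820, limma), SLC7A8 at -1.86 and SLC3A2 at -1.10, while SLC3A1 was at -0.32. With the mean log2 signal of the 16 proximal tubule markers as a term, 3 of the 9 were called lower in females, where 22.1% of genes were. SLC7A7 kept a log2 difference of -1.47 (adjusted p = 0.00811, limma), SLC6A19 was at -1.12 (adjusted p = 0.0456) and SLC1A1 at -0.88 (adjusted p = 0.0222). The other estimates were -1.09 for SLC7A8 (adjusted p = 0.0716, limma), -0.63 for SLC3A2 (adjusted p = 0.0714), -0.35 for SLC36A2, -0.21 for SLC7A9 and -0.14 for SLC7A13. SLC3A1 turned to 0.65, higher in females at a given marker level (adjusted p = 0.0972, limma). The median of all genes in this fit was -0.43.

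The wider set of amino acid carriers was mixed. Of 27 further genes of amino acid and peptide transport, 15 were tested: 5 were called lower in females, beside 36.1% of all genes, 0 higher, and 10 did not pass. Their median log2 difference was -0.37 against -0.35 for all genes. With an offset of 0.1 in place of 1 it was -0.69 against -0.43, and with an offset of 5 it was -0.21 against -0.21. Under median scaling it was -0.08 against 0.03. A filter of at least 10 kept 9 of the 15 with the same count of 5 called, at -0.86 against -0.43. The 5 were SLC15A2, the kidney peptide carrier (-1.10, adjusted p = 0.000547, limma), the taurine carrier SLC6A6 (-0.86), SLC38A2 (-0.66), a neutral amino acid carrier of most cells, the GABA carrier SLC6A13 (-1.28) and SLC7A10, a neutral amino acid exchanger that pairs with 4F2hc (-1.36). SLC15A2 was the only 1 of these 5, and of the 15 tested, without overlap, where 11.8% of all genes were lower in females without overlap. The glutamine carrier SLC38A1 was next at -0.43 (adjusted p = 0.0924, limma). The count of 5 was 1 under median scaling, beside 14.9% of all genes called lower, and 0 with all 17 libraries, beside 12.9%. It was 3 without male 4, male 7 or male 9. With the proximal tubule marker level as a term, 3 of the 15 were called lower, beside 22.1% of all genes, and 1 higher, beside 1.45%. The 4 called were SLC36A4, SLC38A1, SLC38A2 and SLC7A10, of which SLC36A4 and SLC38A1 had not passed in the main fit. SLC15A2, SLC6A6 and SLC6A13 did not pass in that fit.

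A partner protein and a regulator of the tubule were lower too. Collectrin (TMEM27), which brings B0AT1 to the kidney apical membrane, had a log2 difference of -1.27 (adjusted p = 0.0160, limma). HNF4A, a transcription factor of proximal tubule and liver genes, was at -1.82 (adjusted p = 0.00646, limma). Under median scaling TMEM27 did not pass. Neither passed with all 17 libraries (adjusted p = 0.135 and 0.0972, limma), against series A males alone (0.135 and 0.0579), with age as a term or with the proximal tubule marker level as a term.

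A ratio of light to heavy chain within a library does not move with the scaling of that library, apart from the offset added before the logarithm. All 4 ratios had a lower mean in females, and 3 of the 4 differences passed the test. A lower ratio means that the light chain was lower by more than its heavy chain. The log2 ratio of SLC7A9 to SLC3A1 was -3.30 ± 0.27 in females (SD, n = 6) and -2.67 ± 0.28 in males (SD, n = 8), a difference of -0.62 (two-sided exact permutation test, p = 0.00133, adjusted over 4 ratios 0.00533). For SLC7A13 over SLC3A1 it was -2.35 ± 0.43 and -1.35 ± 0.77, a difference of -0.999 (exact permutation p = 0.0167, adjusted 0.0222). The male spread was wide, from -2.33 in male 4 to -0.17 in male 1, and without female 3 the difference was -0.88 (exact permutation, adjusted p = 0.0513).

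On the basolateral side, the log2 ratio of SLC7A8 to SLC3A2 was -0.60 ± 0.52 in females and 0.19 ± 0.41 in males, a difference of -0.79 (exact permutation p = 0.00932, adjusted 0.0186). For SLC7A7 over SLC3A2 it was -2.89 ± 0.57 and -2.60 ± 0.26, a difference of -0.29 that was smaller than the spread between females (exact permutation p = 0.234). The sexes overlapped in all 4 ratios. With all 17 libraries the difference for SLC7A9 over SLC3A1 was -0.052 (exact permutation, adjusted p = 0.897), and none of the 4 passed.

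**Figure D3:**
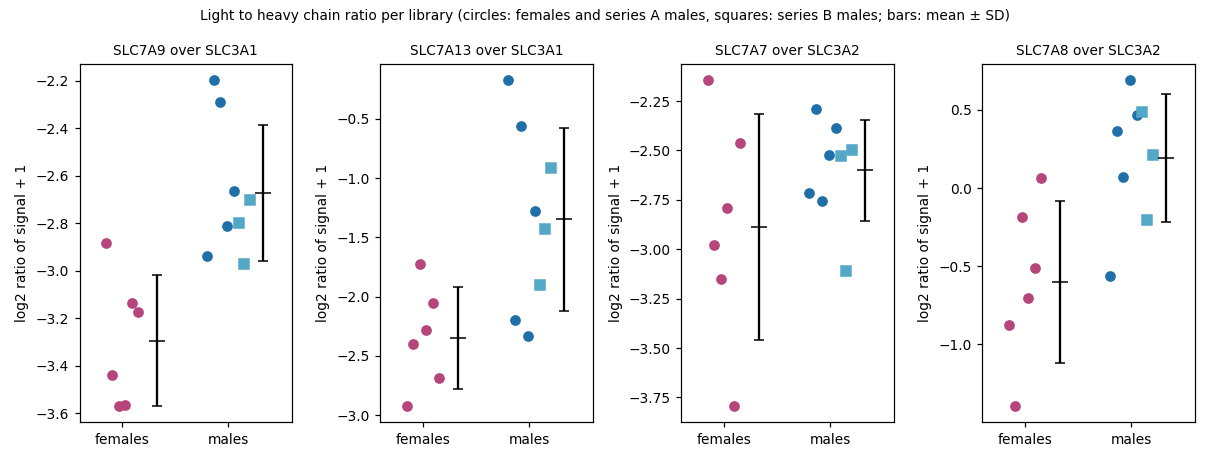
Log2 ratio of light to heavy chain signal in each library for the 4 chain pairs, by sex, with the mean as a bar and the SD as error. The female mean is below the male mean in all 4 panels, by 0.29 to 0.999 on the log2 scale, and the points of the sexes overlap in each.

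Chains of the same transporter rose and fell together across the 14 libraries. Over log2 signal, SLC3A1 correlated with SLC7A9 at r = 0.95 (Spearman's rho 0.90, permutation p adjusted over 36 pairs 4.8e-05) and with SLC7A13 at r = 0.93 (rho 0.81, permutation, adjusted p = 0.000137). SLC3A2 correlated with SLC7A7 at r = 0.89 (rho 0.85, permutation, adjusted p = 0.000203) and with SLC7A8 at r = 0.95 (rho 0.95, permutation, adjusted p = 2.77e-05). Without the 2 libraries farthest from the median of the heavy chain, r was 0.85, 0.72, 0.89 and 0.94 in that order. A difference between the sexes that both genes share enters these pooled values.

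Within the sexes the 4 pairs gave a wider range of values. SLC3A1 and SLC7A9 stayed together in females (r = 0.99, exact permutation p = 0.00417, n = 6) and in males (r = 0.88, exact permutation p = 0.00347, n = 8). SLC3A1 and SLC7A13 had r = 0.99 in females (exact permutation p = 0.00278) and 0.52 in males (exact permutation p = 0.184). SLC3A2 and SLC7A7 had r = -0.19 in females (exact permutation p = 0.765), where SLC7A7 spanned a narrow range, and 0.86 in males (exact permutation p = 0.00608). SLC3A2 and SLC7A8 had 0.74 in females (exact permutation p = 0.0556) and 0.91 in males (exact permutation p = 0.000521). The difference in r between the sexes was not tested. With each sex centred on its own mean, r was 0.97, 0.89, 0.55 (permutation, adjusted p = 0.0632) and 0.84 in the order above.

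**Figure D4:**
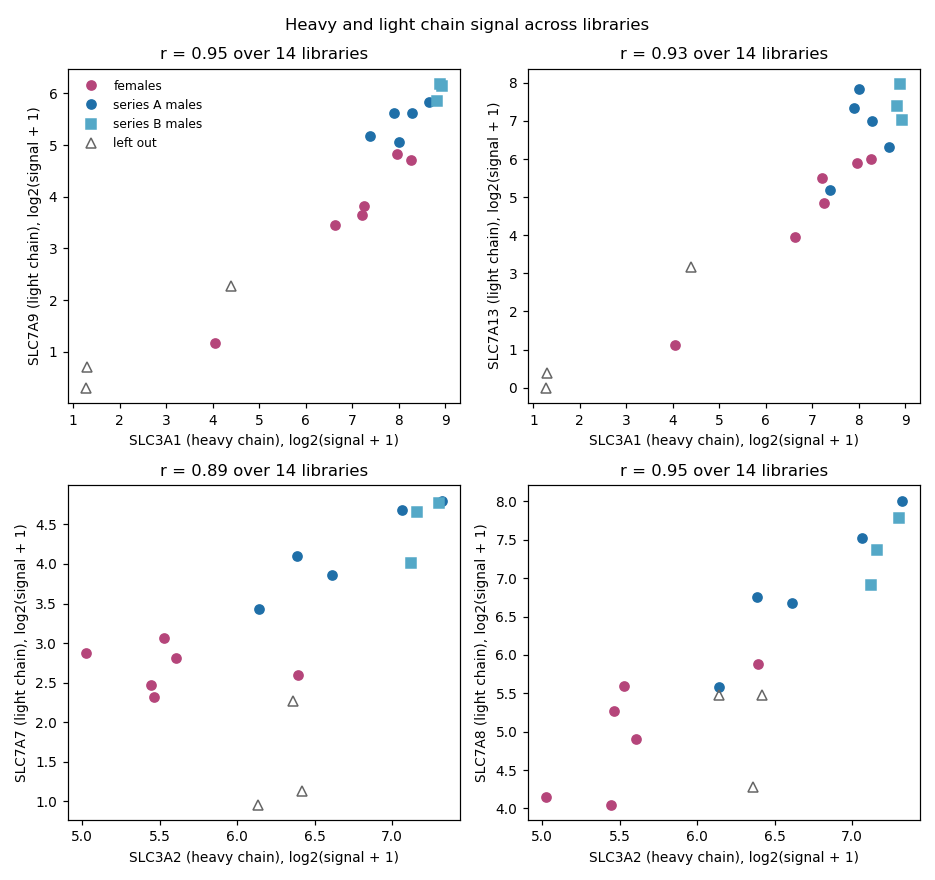
Log2 signal of the light chain against that of its heavy chain, 1 panel per pair, with females and males of the 14 libraries marked apart. The 3 libraries left out are drawn as open triangles and enter no r. The points of the 14 libraries follow a line in each panel, with pooled r from 0.89 to 0.95. The 6 females used lie flat in the SLC7A7 panel at r = -0.19, and there the 3 libraries left out lie below all 14.

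The chain pairs were not the tightest pairs among the members. All 36 pairs of the 9 genes had a positive pooled r with an adjusted permutation p under 0.05, from 0.53 for SLC7A13 with SLC7A7 to 0.98 for SLC7A9 with SLC36A2, with a median of 0.88. Within females 29 of the 36 were positive, and the 7 negative ones all held SLC7A7, which was positive with SLC7A8 alone (r = 0.08). Without female 3, 3 of these 7 turned positive (SLC7A7 with SLC3A2, SLC7A9 and SLC36A2, the highest at 0.23), and SLC3A1 with SLC7A8 fell to -0.0033. Most other pairs without SLC7A7 fell too but stayed positive, such as SLC3A1 with SLC6A19 from 0.83 to 0.48. SLC3A2 rose with SLC6A19 (0.96 to 0.98) and with SLC1A1 (0.90 to 0.91). Within males 32 were positive, and the 4 negative ones all held SLC7A13, paired with SLC7A7, SLC7A8, SLC6A19 and SLC36A2. The highest r within males was 0.97, between SLC7A7 and SLC7A8.

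**Figure D5:**
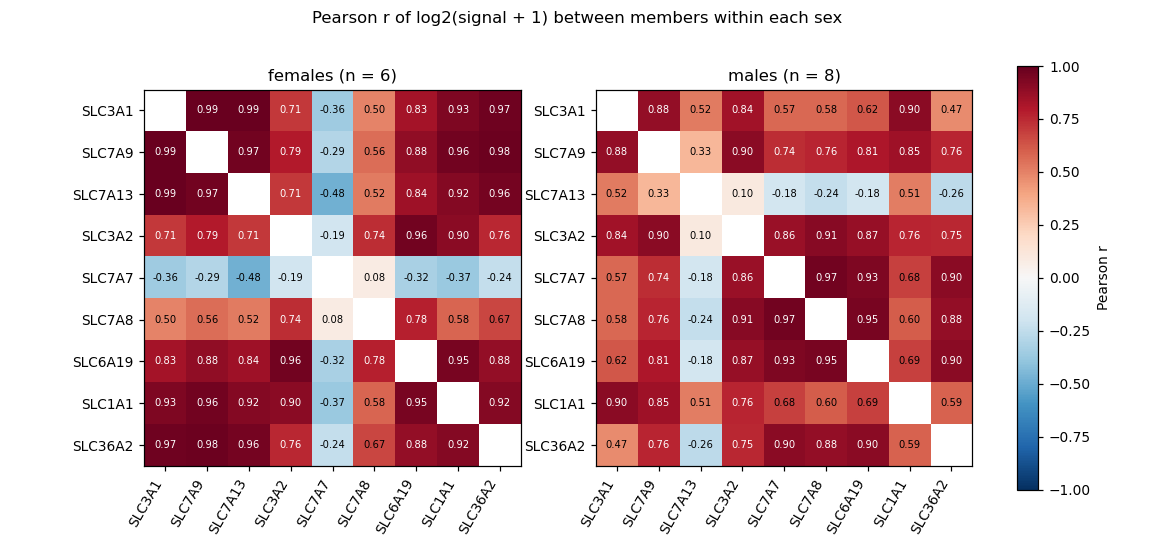
Pearson r of log2 signal for the 36 pairs of the 9 genes, within females (n = 6) and within males (n = 8). In females the SLC7A7 pairs are the low ones, down to -0.48 with SLC7A13, and in males the SLC7A13 pairs, down to -0.26 with SLC36A2.

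Most members followed the proximal tubule marker level, the mean log2 signal of the 16 markers, closely. SLC7A9 and SLC36A2 had r = 0.99 with it over the 14 libraries, SLC3A1 and SLC6A19 0.95, SLC1A1 0.93, SLC7A13 0.90, SLC3A2 0.89, SLC7A8 0.85 and SLC7A7 0.71 (permutation, the largest p adjusted over the 9 being 0.00159). The rho ran from 0.75 for SLC7A13 to 0.98 for SLC3A2. Without female 3 and female 4, the libraries farthest from the median marker level, r was lowest for SLC7A13 at 0.72. SLC7A9 kept its r within females (0.99) and males (0.96), whereas SLC7A13 had 0.97 in females and 0.10 in males (exact permutation p = 0.802). SLC7A7 had -0.30 in females (exact permutation p = 0.613) and 0.85 in males (exact permutation p = 0.00724). SLC3A2 (r = 0.81, exact permutation p = 0.0861) and SLC7A8 (r = 0.67, exact permutation p = 0.121) did not pass within females either. The female values include female 3, whose marker level was 3.11 against 6.06 in the next female. They were not computed again without it.

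With the marker level taken out of each gene, the basolateral pairs passed the test and the apical pairs did not. The residual r was 0.35 for SLC3A1 with SLC7A9 (permutation, adjusted p = 0.328) and 0.51 for SLC3A1 with SLC7A13 (permutation, adjusted p = 0.128). It was 0.79 for SLC3A2 with SLC7A7 (permutation, adjusted p = 0.00655) and 0.81 for SLC3A2 with SLC7A8 (permutation, adjusted p = 0.00468). These values were not particular to partners: 7 pairs that are not chain pairs also passed, SLC3A2 with SLC6A19 having the highest residual r of all 36 (0.86, permutation, adjusted p = 0.00264). Whether the residual values differ between the apical and the basolateral pairs was not tested, and sex still enters them.

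Many genes outside the transporters tracked a chain more closely than its partner did. Among 4943 tested genes with a mean log2 signal of at least 3, those nearest to SLC3A1 over the 14 libraries were RNF186 (r = 0.99), SLC22A11 (0.98) and NAT8 (0.98), and SLC7A9 ranked 35th and SLC7A13 112th. For SLC7A9 they were LOC101005940, SLC17A1 and CALML4, each at 0.99, with SLC3A1 at rank 108. SLC17A1 is a phosphate and urate carrier of the proximal tubule and SLC22A11 an organic anion and urate carrier. For SLC3A2 they were GJB1, EPHX1 and ALDH1B1, each at 0.98, with SLC7A8 at rank 52 and SLC7A7 at rank 401. From the light chain's side, SLC3A2 was 6th for SLC7A8 and 138th for SLC7A7. For SLC7A7 the nearest were FDX1, ADD3 and MAN1C1, each at 0.95, and for SLC6A19 they were NOX4, DMGDH and NET1, each at 0.98. These ranks describe likeness over 14 libraries that share a sex difference.

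Apart from SLC1A1 and SLC7A8, each of the 9 genes had 1 transcript in both tables. For SLC1A1, transcript XM_017949893.2 had a signal of 10.4 ± 4.77 in females (SD, n = 6) and 51.8 ± 19.99 in males (SD, n = 8), whereas XM_017949892.2 had 3.81 ± 3.22 and 4.31 ± 1.19. The former held 49.8% to 98.0% of the gene's signal in females and 83.4% to 95.3% in males. In female 6 and in the 3 libraries left out the split was 50.2% to 49.8%, an almost even division, and how the upstream tool shared reads between these transcripts was not tested. For SLC7A8, XM_003901587.2 held 50.4% to 98.0% in females (median 93.7%) and 88.3% to 95.3% in males (median 93.6%).

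In the authors' deposited table of males, 9 of the 12 member transcripts carried the co-expression module colour blue, which 3027 of the 17119 shared transcripts carry. The exceptions there were SLC7A13, in purple, the lower SLC1A1 transcript, in greenyellow, and XM_009211195.3, 1 of the 2 minor SLC7A8 transcripts, in black. In the authors' deposited table of females, the same 12 fell into 5 colours. SLC3A1, SLC7A9, SLC7A13 and a transcript of SLC1A1 were in pink, and SLC6A19 was in darkturquoise with the main transcripts of SLC7A8 and SLC1A1. SLC3A2, SLC36A2 and a transcript of SLC7A8 were in blue, and SLC7A7 was alone in grey60. Of the 17119 shared transcripts, 5612 carry blue in the female table, 943 pink, 584 darkturquoise and 1266 grey60. Each table has its own column of colours, so the same colour in both does not mean the same module.

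The 3 libraries left out divided the members. SLC7A7 and SLC1A1 were lower in all 3 than in any of the 14 libraries used, with SLC7A7 at 1.18, 0.947 and 3.82 in female 1, female 2 and male 6. SLC6A19 was listed at 0 in female 1 and female 2 and was at 0.294 in male 6. By contrast SLC36A2 was at 36.7, 54.3 and 27.6, above every female used and within the male range. SLC3A2 was at 84.5, 69.4 and 81.3 and SLC7A8 at 43.8, 43.5 and 18.5, within the ranges of the other libraries. Proximal tubule markers were low in the same 3 libraries, at a summed signal of 160 to 325, beside the skeletal muscle signal given above, whose part in these values was not tested.

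Among the 8 males, all 9 members had a higher estimate in series B than in series A, a comparison chosen after the values were seen. None was called (limma, 0% of the 8932 genes tested), and the median log2 difference was 0.60 over the members and 0.18 over all genes. SLC3A1 (0.84) and SLC7A9 (0.60) did not overlap between the series, where 4.83% of genes were higher in series B without overlap. SLC3A1 ran from 165 to 400.5 in the 5 males of series A and from 451 to 490.3 in the 3 of series B.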

How the data were processed

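Per the file headers, the authors deposited a separate table for each sex, holding for every transcript 1 signal value per library. Partek is named in the submitters' processing notes. Aligner, scaling and genome build are not stated, and read depth is unknown. The male table was held in part (17119 complete transcripts), so the transcripts in both tables were used. The lowest value was 1, so an offset of 1 was subtracted before values were summed per gene. Genes had to reach a signal of 1 in 6 or more of the 14 libraries, which 9532 did. The sexes were compared with limma (3.58.1, R 4.3.3) on log2(signal + 1), with a trended variance and p-values adjusted over all genes by Benjamini and Hochberg. This scale understates changes of low genes. Correlations used 100000 random pairings (NumPy 2.4.6, ranks from SciPy 1.17.1), whose smallest p is 1e-05, or every pairing within a sex. Ratios used exact permutation over all 3003 groupings. Alternatives were scaling, offset, filter, library subsets, age and marker terms.

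Members and lists were chosen with earlier results of these data known. The rule for named genes took the 9 members, TMEM27, HNF4A and further accessory genes that are not reported here, the 6 other transport genes of smallest p, and the 3 genes nearest to each of SLC3A1, SLC7A9, SLC3A2, SLC7A7 and SLC6A19.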

Additional observations from a re-analysis of the deposited data

Results flagged for a closer look

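In 3 sets of values a library stood far from the rest of its group, and each time it was female 3. Its log2 signal of SLC7A9 was 1.16, and the next female was at 3.46. Its log2 signal of SLC36A2 was 0.079, and the next female was at 3.13. Its proximal tubule marker level was 3.11, and the next female was at 6.06. In all 28 sets were examined, and chance sets 1 library apart in about 1 of 20. The sets are not independent, since SLC7A9 and SLC36A2 followed the marker level at r = 0.99. The 3 flags can therefore not be weighed against that rate. In female 3 the summed signal of thick ascending limb genes, 11495, was the highest of the 6 females used. SLC7A7, at 6.35, and SLC7A8, at 16.7, were not the lowest females there.

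A further transcript of SLC1A1, XM_017949894.2, was held in the female table alone and entered no comparison. It was at 12.4 in female 6, and the next highest female was at 1.71.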

How the results depend on the processing

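All 9 members kept a lower estimate in females under every alternative run except SLC3A1 with the proximal tubule marker level as a term, at 0.65 and not called. The number of members called was 0 with age as a term, 3 with the marker level as a term, 2 with all 17 libraries and median scaling together, and 7 to 9 otherwise. SLC3A1 lost its call without female 8, male 7, male 8 or male 9. The other transport genes called numbered 0 with all 17 libraries, 1 under median or upper quartile scaling, 0 with age, 2 against series A and 3 against series B males, 1 with all 17 and median scaling (SLC7A6, called higher in females), 1 under median scaling without female 3, and 3 to 6 leaving out 1 library. Genes called in either direction numbered 1277 with all 17 libraries, 2226 with a filter of at least 10 (fewer genes tested), 1 with age, 2242 with the marker level, 1914 against series A and 378 with all 17 and median scaling. Genes called higher in females numbered 38, 107, 1, 138, 67 and 131 in that order, and 1377 under median scaling, 1321 under upper quartile scaling, 118 against series B and 1250 under median scaling without female 3. Correlations that did not pass were those of SLC3A2 with SLC7A7 in sex-centred values (0.55) and, as residuals on the marker level, of SLC3A1 with SLC7A9 (0.35) and SLC7A13 (0.51). Ratio differences that did not pass were, for SLC7A9 over SLC3A1, -0.052 with all 17 libraries and -0.47 against series B. For SLC7A13 over SLC3A1 they were -0.69 with all 17 libraries, -0.93 against series B and -1.04 against series A; leaving out 1 library gave -1.14 to -0.83, and it did not pass without female 3. For SLC7A8 over SLC3A2 they were -0.59, -0.77 and -0.81 in the same order. The cause of these changes was not tested. No paired analysis was possible because the replicate numbers were given in accession order and pair no animals. Of the alternatives, 3 (all 17 with median scaling, median scaling without female 3, and series B against series A) were chosen after seeing the data. Depth is unknown, so a signal near 0 sets no limit.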
